A study of Homo sapiens with 6 samples.

Results

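Genes of the activin system were measured by RNA-seq in the human prostate cancer cell line 22Rv1, in 3 libraries of cells labelled as derived from a liver metastasis (liver-derived, LV) and 3 libraries of the control cells, labelled wild type (parental, WT). The set holds 10 of the 57500 genes listed: the subunit genes INHBA, INHBB, INHBE and INHA, the antagonist genes FST and FSTL3, and the receptor genes ACVR1, ACVR1B, ACVR2A and ACVR2B, each taken by its symbol in the deposited TPM table and read under the same identifier in the counts. The set was chosen from the family after the LV-against-WT difference of INHBA in these same libraries was known. The differences of its members between the groups are therefore a description, with calls defined below but no p-values, and support nothing beyond themselves. The title of the series concerns prostate-specific membrane antigen in metastatic prostate cancer, and LV against WT is the comparison made; the series' design counts a further condition, not analysed here. No agent or engineered allele is named for either group, and both were grown in RPMI-1640 with fetal bovine serum. The labels call the libraries of a group biological replicates without saying that they were separate cultures, and they give neither the host nor the number of independent derivations from liver, so variation from one derivation to another is unknown, and liver origin cannot be told apart from any other difference between the 2 populations. PolyA-selected RNA was read from both ends on an Illumina NovaSeq.

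Activins are dimers of beta subunits: the INHBA product gives activin A, the INHBB product gives activin B, and a beta subunit paired with the alpha subunit encoded by INHA gives an inhibin, which opposes activin. Activin binds a type II receptor kinase (ACVR2A or ACVR2B), which phosphorylates a type I receptor (mainly ACVR1B, also called ALK4), which in turn phosphorylates SMAD2 and SMAD3. Follistatin (FST) and follistatin-like 3 (FSTL3) are secreted proteins that wrap around activin and keep it from its receptors. In the normal prostate, activin and follistatin are known as local regulators of epithelial growth.

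Counts summed to 28395265 to 53275252 per library. Within groups, library pairs gave a chi-square of their gene counts, per degree of freedom, of 2.45 to 3.15 in LV and of 2.24 for WT replicates 1 and 3, but 55.3 and 61.8 for the pairs with WT replicate 2, which is the library that differs. All 10 prostate epithelial markers examined were detected, with a summed level of 2668 to 2718 TPM in LV and 3270 to 3392 TPM in WT libraries. The markers went both ways: KLK2 stood at 7.04 to 7.86 TPM in LV and 67.3 to 74.4 TPM in WT libraries, FOLH1 at 152 to 157 TPM in LV and 417 to 592 TPM in WT libraries, and KLK3 and TMPRSS2 were also lower in LV, whereas KRT8 stood at 578 to 595 TPM in LV and 325 to 383 TPM in WT libraries and KRT18 was likewise higher in LV. Of 13 hepatocyte markers, 11 averaged under 1 TPM; FGA was at 0 in every library, and the summed level of 69.1 to 73.1 TPM in LV and 44.8 to 59.0 TPM in WT libraries was nearly all ALB, at most 70.3 TPM in LV and 56.7 TPM in WT libraries. Their part in the results was not tested. Of 13 stromal, endothelial and leukocyte markers, 11 averaged under 1 TPM, CD3E and CDH5 were at 0 in every library, and the sum was 8.30 to 9.59 TPM in LV and 10.9 to 11.3 TPM in WT libraries.

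INHBA and INHBB changed places as the leading subunit gene. Levels are given as TPM (transcript abundance, reads scaled by the summed exon length of the gene and by library), as the authors deposited them. INHBA (ENSG00000122641; chromosome 7, 41667168 to 41705834, GRCh38, minus strand) was measured at 95.5, 95.3 and 96.2 TPM in LV replicates 1 to 3, against 1.88, 1.21 and 2.31 TPM in WT replicates 1 to 3. The LV libraries lay within 1 TPM of each other and far above all 3 WT libraries, and 6277 to 11764 reads in LV and 133 to 272 reads in WT libraries stood behind these values. The fitted log2 fold change was 5.77 (SE 0.17), or 54.7-fold, which placed INHBA at rank 27 of the 19255 genes tested by size of change. These are bulk libraries, so more cells carrying a transcript and more transcript per cell cannot be told apart.

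INHBB (ENSG00000163083; chromosome 2, 120346143 to 120351808, plus strand) moved the other way, at 9.15, 10.6 and 10.3 TPM in LV replicates 1 to 3, against 31.9, 39.5 and 34.7 TPM in WT replicates 1 to 3. The groups did not overlap, and parental replicate 2 was the highest library. The log2 fold change was -1.79 (SE 0.12), or 3.45-fold lower in LV cells. INHBE, which encodes the beta E subunit and is known mainly from liver, was near 1 TPM throughout, at 0.961, 1.04 and 1.27 TPM in LV and 1.56, 1.41 and 1.38 TPM in WT libraries. With 25 to 53 reads in LV and 56 to 62 reads in WT libraries it did not pass the threshold, although the TPM ranges did not overlap (log2 fold change -0.36, SE 0.19). INHA was barely detected, with 6, 0 and 6 reads in LV and 13, 24 and 11 reads in WT replicates 1 to 3, which is 0.159 ± 0.138 TPM in LV and 0.680 ± 0.314 TPM in WT cells (SD, n = 3 each). Its fitted log2 fold change of -1.82 (SE 0.63) passed with all 6 libraries, and the call was lost when any 1 library other than parental replicate 3 was left out. The alpha subunit transcript that an inhibin needs was thus the lowest of the 10 in both groups.

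**Figure D1:**
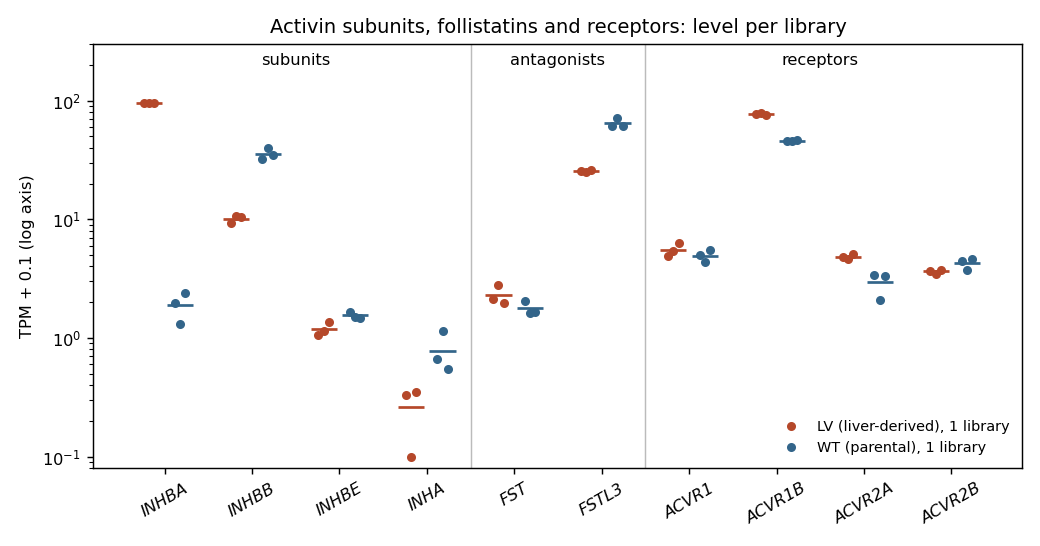
Level of each of the 10 genes per library, as TPM + 0.1 on a log axis, with the liver-derived libraries (LV) left of the parental ones (WT) and a bar at each group mean. INHBA sits at 95.3 to 96.2 TPM in LV and 1.21 to 2.31 TPM in WT libraries, while INHBB and FSTL3 are lower in LV than in WT libraries.

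Taken over the 4 beta subunit genes (INHBA, INHBB, INHBE and INHBC, the last not a member), INHBA supplied 89.9, 88.8 and 88.7% of the summed TPM in LV replicates 1 to 3, against 5.28, 2.86 and 5.93% in WT replicates 1 to 3. INHBB supplied 8.61 to 9.86% in LV and 88.9 to 93.3% in WT libraries. The leading gene was thus a different one in each group, and INHBC and INHBE together made up the small rest. The sum of the 4 genes was 107 ± 1.11 TPM in LV and 39.0 ± 3.34 TPM in WT cells (SD, n = 3 each). The ratio of INHBA to INHBB was 9.01 to 10.4 in LV and 0.0307 to 0.0667 in WT libraries, the lowest WT ratio being that of parental replicate 2.

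The promoters of these genes differ in composition, and those of INHBA and INHBB are shown because the genes moved in opposite directions. RefSeq windows (GRCh38.p14) of 300 bases, from 250 before to 50 after an annotated start site, were found for 9 of the 10 members. Capitals mark matches, on either strand, to 4 motifs: TATAAA, the TATA box; TGANTCA, the AP-1 site; TGACGTCA, the cyclic AMP response element; and CAGAC, the core of SMAD binding. No matches overlap in the windows shown. The INHBA window is chr7:41703041-41703340 on the minus strand and the INHBB window chr2:120345886-120346185 on the plus strand, each written 5′ to 3′.
INHBA: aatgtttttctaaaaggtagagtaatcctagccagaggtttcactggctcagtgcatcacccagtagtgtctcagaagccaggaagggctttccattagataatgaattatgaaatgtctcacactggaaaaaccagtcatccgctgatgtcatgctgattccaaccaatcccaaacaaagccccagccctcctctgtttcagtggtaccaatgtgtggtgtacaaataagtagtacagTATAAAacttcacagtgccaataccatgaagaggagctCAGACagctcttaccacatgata
INHBB: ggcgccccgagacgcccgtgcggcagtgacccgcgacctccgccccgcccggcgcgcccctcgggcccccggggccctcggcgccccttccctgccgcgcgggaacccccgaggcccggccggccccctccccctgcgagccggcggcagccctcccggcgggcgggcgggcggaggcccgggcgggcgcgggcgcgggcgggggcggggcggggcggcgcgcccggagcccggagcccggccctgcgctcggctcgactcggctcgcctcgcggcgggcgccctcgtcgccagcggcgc
The INHBA window lies inside the listed gene, whose longest isoforms begin farther upstream. It holds 1 CpG dinucleotide at 43.3% GC, and the INHBB window holds 58 CpG dinucleotides at 88.7% GC, against a median of 14.0 CpG and 58.7% GC over the 35116 windows of the table. Fewer CpG dinucleotides than in the INHBA window were found in 3.96% of all windows, and fewer than in the INHBB window in 99.8%. The INHBA window holds TATAAA, found in 11.5% of all windows, beginning 11 bases before the annotated start site, and CAGAC, found in 45.3%, beginning at base 28 of the transcript. None of the 4 motifs is in the INHBB window, which says only that these letters are not in it.

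Among the antagonists, FSTL3 fell and FST did not pass the threshold. FSTL3 (ENSG00000070404; chromosome 19, 676365 to 683399, plus strand), whose product binds activin much as follistatin does, stood at 25.4, 24.7 and 25.8 TPM in LV replicates 1 to 3, against 60.5, 71.2 and 61.4 TPM in WT replicates 1 to 3. All LV libraries lay below all WT libraries, with a log2 fold change of -1.31 (SE 0.10), or 2.48-fold lower in LV cells. FST was low, at 2.04, 2.67 and 1.87 TPM in LV and 1.94, 1.53 and 1.54 TPM in WT replicates 1 to 3. The TPM ranges overlapped, while the CPM ranges were narrowly apart (log2 fold change 0.41, SE 0.18). FST rested on 60 to 90 reads per library. FSTL3 exceeded FST 9.23- to 13.8-fold per length in LV and 31.2- to 46.5-fold in WT libraries. Its promoter window, chr19:676142-676441 on the plus strand, is shown beside those above because FSTL3 fell with INHBB.
FSTL3: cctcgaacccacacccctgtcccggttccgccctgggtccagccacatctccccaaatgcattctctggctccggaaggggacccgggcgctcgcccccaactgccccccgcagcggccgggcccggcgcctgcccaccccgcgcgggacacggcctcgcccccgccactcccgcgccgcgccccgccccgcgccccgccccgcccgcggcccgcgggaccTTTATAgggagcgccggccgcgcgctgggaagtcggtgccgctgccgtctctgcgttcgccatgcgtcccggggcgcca
It holds 44 CpG dinucleotides at 78.7% GC, more CpG than 95.8% of all windows. Like the INHBA window it has a TATA match, here on the opposite strand. CpG content did not go with direction over the members. ACVR1B, higher in LV cells, has a window with 56 CpG at 82.3% GC and another with 6 CpG. ACVR2A, also higher in LV cells, has a window with 16 CpG. A link between promoter composition and direction was not tested.

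Set beside the beta subunits, the antagonist transcripts were the smaller pool in LV and the larger in WT cells. FST and FSTL3 together gave 27.4 to 27.6 TPM in LV and 62.5 to 72.7 TPM in WT libraries. The 4 beta subunit genes exceeded that sum 3.88- to 3.93-fold in LV libraries, whereas in WT libraries they reached 0.571 to 0.619 of it. The ratio varied little within either group, and parental replicate 2, the highest WT library for both pools, gave 0.582. These are ratios of transcript levels, and protein was not measured.

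**Figure D2:**
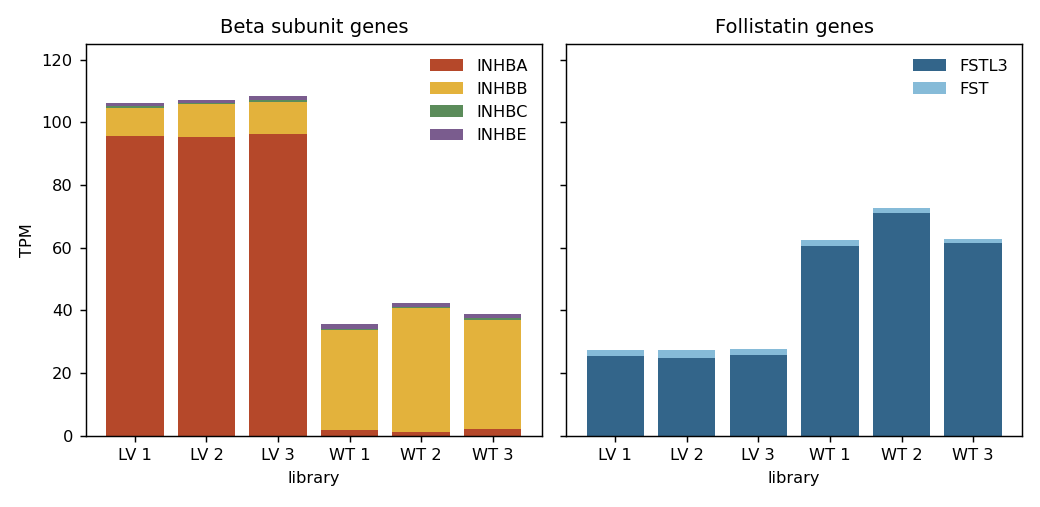
Stacked TPM of the beta subunit genes (left) and of FSTL3 and FST (right) in each library, LV replicates left of WT replicates. INHBA makes up 88.7 to 89.9% of the beta subunit sum in LV libraries and 2.86 to 5.93% in WT libraries.

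Of the receptor genes, ACVR1B and ACVR2A were higher in LV cells, and ACVR1 and ACVR2B did not pass with all 6 libraries. ACVR1B (ENSG00000135503; chromosome 12, 51951667 to 51997078, plus strand), the main type I receptor of activin and also of Nodal, stood at 77.1, 78.1 and 75.3 TPM in LV replicates 1 to 3, against 45.4, 45.4 and 46.0 TPM in WT replicates 1 to 3. Each group was tight and the groups were well apart, with a log2 fold change of 0.79 (SE 0.07), or 1.73-fold. ACVR1, a type I receptor best known for BMP signals, stood at 4.76, 5.34 and 6.23 TPM in LV and 4.87, 4.25 and 5.37 TPM in WT replicates 1 to 3, with overlapping groups (log2 fold change 0.22, SE 0.13). ACVR1B was 12.1 to 16.2 times as abundant per length as ACVR1 in LV and 8.56 to 10.7 times in WT libraries.

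The type II receptors were far lower than ACVR1B, and their order per length, though not in reads, was turned round. ACVR2A (chromosome 2, 147844517 to 147930826, plus strand) stood at 4.72, 4.54 and 4.97 TPM in LV replicates 1 to 3, against 3.29, 1.98 and 3.24 TPM in WT replicates 1 to 3. The groups did not overlap, parental replicate 2 was the lowest library, and the log2 fold change was 0.79 (SE 0.16). Without parental replicate 2 that value was 0.62 (SE 0.09) and kept its call. ACVR2A shares 430 exon bases with ORC4 on the opposite strand, which held 601 to 1087 reads in LV and 780 to 1204 reads in WT libraries against 244 to 474 and 177 to 311 reads of ACVR2A, so with the strand setting unknown some of its reads may be those of ORC4. ACVR2B stood at 3.60, 3.38 and 3.62 TPM in LV and 4.32, 3.64 and 4.51 TPM in WT replicates 1 to 3. The ranges did not overlap, WT replicate 2 lying nearest to the LV libraries. ACVR2B did not pass with all 6 libraries (log2 fold change -0.19, SE 0.09) and passed without parental replicate 2 (-0.24, SE 0.06). Per length, ACVR2A was 1.31 to 1.37 times ACVR2B in LV and 0.543 to 0.763 times ACVR2B in WT libraries. In reads ACVR2B was the higher in every library, with 840, 422 and 792 in LV and 896, 758 and 1008 in WT replicates 1 to 3. The order in LV cells thus rests on dividing by summed exon lengths of 15744 bases for ACVR2B and 6770 bases for ACVR2A. The sum of both was 7.92 to 8.59 TPM in LV and 5.62 to 7.75 TPM in WT libraries.

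In all, 3 of the 10 members rose (INHBA, ACVR1B and ACVR2A) and 3 fell (INHBB, FSTL3 and INHA), where rose and fell mean an edgeR quasi-likelihood p, adjusted over all 19255 genes, under 0.05. Of all genes tested, 38.8% passed in either direction, 17.5% higher and 21.3% lower in LV cells, and since INHBA led to the choice of the set nothing is read from the members' count. The members ranked by level as INHBA, ACVR1B, FSTL3, INHBB, ACVR1, ACVR2A, ACVR2B, FST, INHBE and INHA in LV cells. In WT cells the order was FSTL3, ACVR1B, INHBB, ACVR1, ACVR2B, ACVR2A, INHBA, FST, INHBE and INHA. Neighbours whose library ranges overlapped were ACVR1 and ACVR2A in LV cells, and in WT cells ACVR1 with ACVR2B, ACVR2A with INHBA, INHBA with FST, and FST with INHBE. INHBA thus led all 10 in LV cells, and in WT cells its range overlapped those of ACVR2A, FST and also INHBE. TPM divides by the summed exon length of all annotated isoforms, from 1753 bases for INHA to 15744 bases for ACVR2B, so a gene that uses a short isoform reads low in this order.

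**Figure D3:**
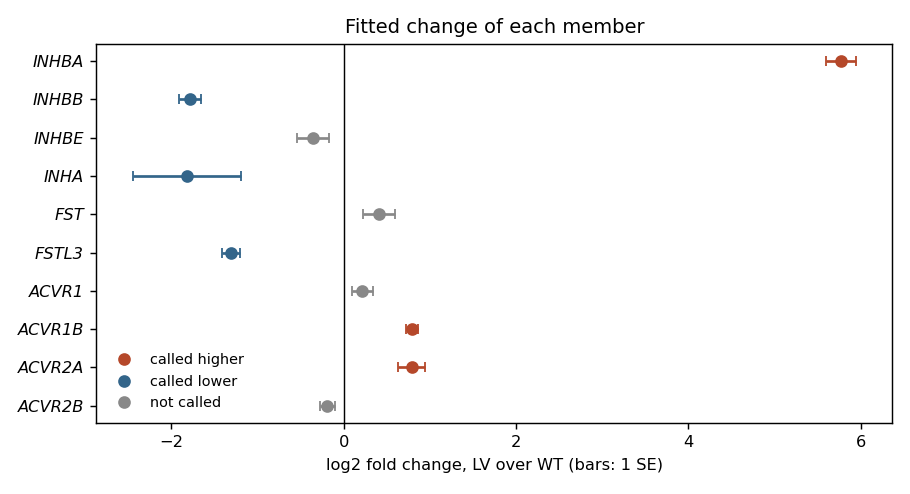
Fitted log2 fold change of each member, LV over WT, with bars of 1 SE and colour by call. INHBA lies at 5.77, INHBB at -1.79 and FSTL3 at -1.31, while the receptors lie between -0.19 and 0.79.

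The genes next to the members on the chromosome were read to see whether whole regions moved. They were chosen by position, as the 3 nearest protein-coding genes on each side of INHBA, INHBB, FSTL3 and ACVR1B. The nearest to INHBA is GLI3, a transcription factor of Hedgehog signalling 255 kb away, at 3.77 ± 0.197 TPM in LV and 3.38 ± 0.0200 TPM in WT cells (SD, n = 3 each), which did not pass (log2 fold change 0.20, edgeR adjusted p = 0.108). SUGCT, a mitochondrial CoA-transferase gene 806 kb away on the other side, rose by 1.56 on the log2 scale (SE 0.35, edgeR adjusted p = 0.00691), with 5.48 ± 2.23 TPM in LV and 1.87 ± 0.697 TPM in WT cells (SD, n = 3 each). CDK13, farther out, rose by 0.22 and MPLKIP and C7orf25 did not pass. The antisense gene INHBA-AS1, which runs across the INHBA locus on the other strand without sharing exon bases, held 23, 16 and 25 reads in LV replicates 1 to 3 and 0, 0 and 1 in WT replicates 1 to 3. The direction is that of INHBA, on very few reads.

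Around INHBB, GLI2 (another Hedgehog transcription factor, 384 kb away) fell to 0.0284 ± 0.0267 TPM in LV cells, against 0.296 ± 0.0395 TPM in WT cells (SD, n = 3 each; edgeR adjusted p = 0.000775). TFCP2L1, an epithelial transcription factor beyond it, rose by 0.68, and RALB, the nearest gene on the other side at 51.4 kb, did not pass (log2 fold change -0.13, edgeR adjusted p = 0.252). EPB41L5 rose by 0.45, TMEM185B fell by 0.46 and CLASP1 fell by 0.26 on that scale. Beside FSTL3, PALM (a lipid-anchored membrane protein gene 25.5 kb away) fell by 1.29 (edgeR adjusted p = 3.58e-05) and MISP, an actin-bundling protein gene 67.7 kb away, rose by 1.59 (edgeR adjusted p = 1.10e-05). RNF126, 13.1 kb away on the other side, did not pass, nor did FGF22 and POLRMT. Around ACVR1B, TAMALIN rose by 0.77, FIGNL2 fell by 0.96, and ACVRL1, a type I receptor of the same family 28.3 kb away, did not pass at 0.257 TPM in LV and 0.417 TPM in WT cells. Neighbours that passed moved in both directions around INHBB, FSTL3 and ACVR1B, and around INHBA both that passed rose by less than the member.

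**Figure D4:**
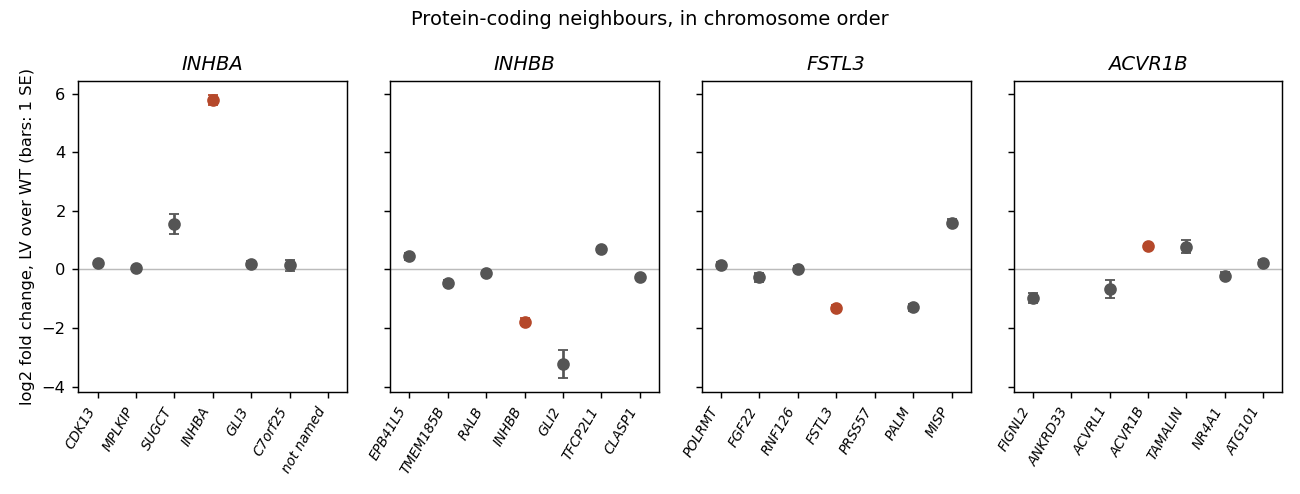
Fitted log2 fold change, LV over WT, of INHBA, INHBB, FSTL3 and ACVR1B (red) and of the 3 nearest protein-coding genes on each side (grey), in chromosome order, with bars of 1 SE and no point for genes too low to test. INHBA at 5.77 stands above its neighbours, of which SUGCT at 1.56 is the highest.

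The genes nearest to INHBA in profile were other genes much higher in LV cells. The profiles contain the LV-against-WT difference for which INHBA was known. Genes with a similarly large rise therefore had to come nearest, and nothing further is read from their likeness. By Euclidean distance between log2 CPM profiles over the 6 libraries, each centred on its mean, the closest of 10027 protein-coding genes were TGM2 (a transglutaminase, distance 0.846), CEACAM6 (a carcinoembryonic antigen family member, 0.857), DSCAM (a neural adhesion molecule, 1.16), SLC7A5 (the LAT1 amino acid transporter, 1.25) and UGT3A1 (a glycosyltransferase, 1.31). Their fitted log2 fold changes ran from 5.42 for TGM2 to 4.86 for UGT3A1, under the 5.77 of INHBA. TGM2 shares exon bases with RPRD1B on the opposite strand, and CEACAM6 belongs to a family of similar sequences. Among the genes nearest to FST were ARHGAP32, at a distance of 0.293 and TPT1, the gene of translationally controlled tumour protein, at 0.308.

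Of 98 further genes of the pathway, set in 11 lists by role, 77 could be tested, of which 22 rose, 23 fell and 32 did not pass, or 58.4% called against 38.8% of all genes. Their median log2 fold change was -0.15, against -0.0075 over all genes. The lists were written with earlier results of these libraries known, and some genes stand in more than 1 list. The counts for each list below are therefore a description, beside 17.5% of all genes called higher and 21.3% lower.

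Other ligands fell or did not pass. Of 7 tested ligands that share the activin type II receptors, 4 fell and 3 did not pass, or 57.1% called against 38.8% of all genes. BMP2 fell by 0.54, BMP5 by 1.67 and BMP6 by 1.22 on the log2 scale. GDF11, a close relative of myostatin named after its values were seen, fell to 23.5 ± 0.472 TPM in LV cells, against 33.1 ± 1.01 TPM in WT cells (SD, n = 3 each). TGFB1, the main TGF-beta, stood at 7.41, 10.1 and 7.56 TPM in LV and 35.8, 41.6 and 37.4 TPM in WT replicates 1 to 3 (log2 fold change -2.17, SE 0.14, edgeR adjusted p = 3.93e-06). It shares 215 exon bases with HNRNPUL1 on the opposite strand, which holds many more reads. TGFB3 fell by 0.76 and TGFB2 did not pass. None of the 10 ligand genes tested in these lists rose, and the other listed ligands were too low to test. IGSF1 fell by 1.01, while the inhibin co-receptor genes TGFBR3 and TGFBR3L and the beta C gene INHBC did not pass.

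Of 8 further receptor genes of the family, 3 rose and 5 did not pass, or 37.5% called, near the 38.8% of all genes. TGFBR1, the type I receptor of TGF-beta, which phosphorylates the same SMADs as ACVR1B, stood at 8.82, 10.7 and 9.06 TPM in LV and 4.18, 3.07 and 4.62 TPM in WT replicates 1 to 3 (log2 fold change 1.30, edgeR adjusted p = 6.88e-05). The BMP receptor genes BMPR1B and BMPR1A rose by 0.87 and 0.34, and the call of BMPR1A was lost in 7 of 14 alternatives, among them those without any 1 liver-derived library. The other 5 receptors, TGFBR2 and BMPR2 among them, did not pass, and without parental replicate 2 1 receptor fell. Among co-receptors and the pseudoreceptor, 3 rose and 1 fell of 4 tested, or 100% called against 38.8% of all genes. BAMBI, a receptor without a kinase domain that dampens signalling, stood at 23.4 ± 0.694 TPM in LV and 5.19 ± 0.0918 TPM in WT cells (SD, n = 3 each; log2 fold change 2.21, SE 0.09, edgeR adjusted p = 2.21e-07). ENG rose by 0.77, with an antisense gene over its exons that holds as many reads, and RGMB, named after its values were seen, rose by 0.57. CFC1, a cofactor that lets Nodal use ACVR1B, fell to 1.63 ± 0.565 TPM in LV cells, against 232 ± 24.5 TPM in WT cells (SD, n = 3 each); it has a near-identical copy, so its reads may be divided.

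Of 11 other secreted antagonists tested, 1 rose and 5 fell, or 54.5% called against 38.8% of all genes. FSTL4 fell by 3.61 on the log2 scale, on 27, 4 and 17 reads in LV replicates 1 to 3. FSTL1 fell by 1.70 and NBL1, a BMP antagonist, rose by 0.78. A place in this list does not show that a gene's product blocks activin. The other falls, named after their values were seen, were CHRDL1, DAND5 and CHRD, all under 2 CPM in both groups, and 3 rather than 5 fell without liver-derived replicate 1. Of 4 proprotein convertase genes, 2 rose, or 50% called against 38.8% of all genes. FURIN, which cuts the precursors of activin and TGF-beta, stood at 334, 324 and 326 TPM in LV and 122, 146 and 123 TPM in WT replicates 1 to 3 (log2 fold change 1.37, SE 0.10, edgeR adjusted p = 1.19e-05). PCSK5, named after its values were seen, rose at under 1 TPM.

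Of 8 SMAD genes, 2 rose, 3 fell and 3 did not pass, or 62.5% called against 38.8% of all genes. SMAD9, a SMAD of the BMP branch, fell by 0.90 (SE 0.09), SMAD7, the inhibitory SMAD, fell by 0.41 and SMAD6, the inhibitory SMAD of the BMP branch, rose by 0.35 on the log2 scale. SMAD3 fell by 0.33 and SMAD4 rose by 0.30, both named after their values were seen, and SMAD2 did not pass (log2 fold change -0.23, edgeR adjusted p = 0.0612). The counts moved with single libraries: 0 rose without any 1 liver-derived library, and 1 rose without parental replicate 3. Only 1 fell without liver-derived replicate 2, and 3 rose and 5 fell without parental replicate 2. Of 12 SMAD partners and regulators, 6 rose and 1 fell, or 58.3% called against 38.8% of all genes. Without parental replicate 2, 8 of them rose and 2 fell. SMURF1, a ubiquitin ligase of SMADs and receptors, rose by 0.86 and TGIF1, a corepressor, by 0.75, while NEDD4L, a ubiquitin ligase of activated SMAD2 and SMAD3, fell by 1.02 (SE 0.07).

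Among known targets that passed, more rose than fell in the activin and TGF-beta branch, and more fell than rose in the BMP branch. Of 17 tested genes of the first kind, 9 rose, 3 fell and 5 did not pass, or 70.6% called against 38.8% of all genes. The number that rose was 8 without any 1 liver-derived library and 10 without parental replicate 2 or 3. Their median log2 fold change was 0.50. CCN2, a matricellular protein gene, stood at 22.3, 21.8 and 22.8 TPM in LV and 4.87, 4.92 and 5.18 TPM in WT replicates 1 to 3 (log2 fold change 2.20, SE 0.09, edgeR adjusted p = 1.88e-07). Besides BAMBI, described above, the other risers, named after their values were seen, were TAGLN, CDKN1A, TGIF1, JUNB, CDKN2B, SKIL and PMEPA1, by 1.30 to 0.43 on the log2 scale, and TAGLN and JUNB share exon bases with PCSK7 and HOOK2 on the opposite strand. LTBP2, an extracellular matrix protein gene, fell by 2.47, and GADD45B and SMAD7 fell by 0.75 and 0.41.

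Of 9 tested BMP targets, 2 rose, 6 fell and 1 did not pass, or 88.9% called against 38.8% of all genes. Their median log2 fold change was -0.60. ID1, an inhibitor of bHLH factors and a direct BMP target, stood at 168, 157 and 170 TPM in LV and 527, 585 and 519 TPM in WT replicates 1 to 3 (log2 fold change -1.68, SE 0.09, edgeR adjusted p = 1.62e-06). ID4 fell by 1.69, and ID3 and ID2, named after their values were seen, fell by 0.93 and 0.60, so all 4 ID genes were called lower. The 2 risers were BAMBI and SMAD6, and only 1 rose without any 1 liver-derived library or without parental replicate 3. SMAD7 and BAMBI stand in both target lists. Targets of either branch respond to other signals too, and the part of activin in these differences was not tested.

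**Figure D5:**
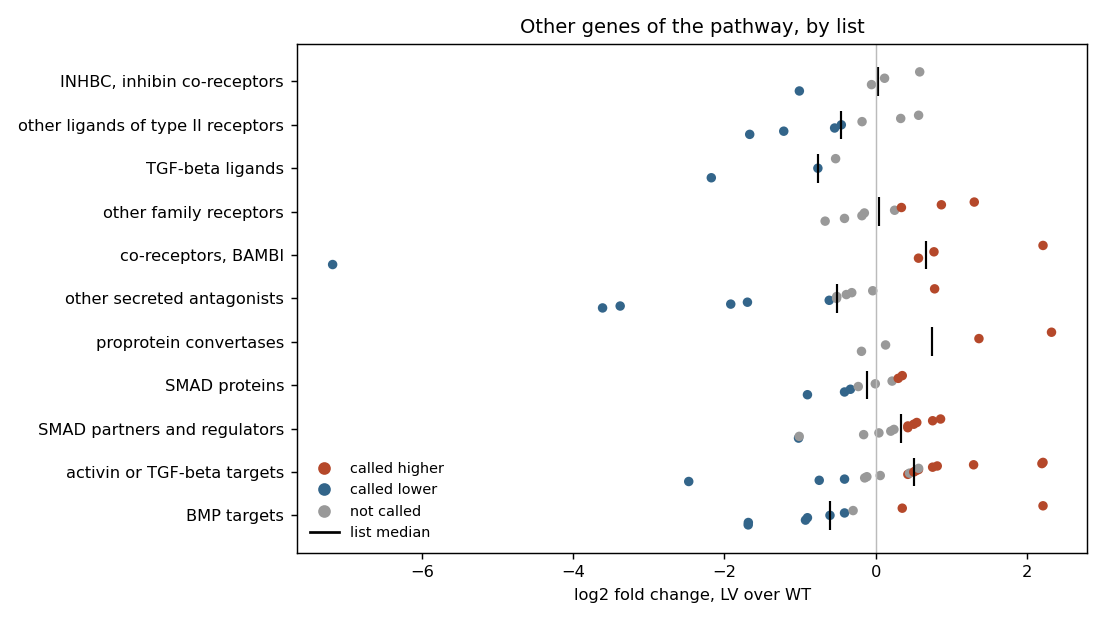
Log2 fold change, LV over WT, of the tested genes of each pathway list, coloured by call, with a black line at the list median. The median of the activin or TGF-beta targets is 0.50 and that of the BMP targets -0.60.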

How the data were processed

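RNA-seq of 2 groups of 3 libraries was analysed, grouped by the sample titles. The submitters' processing notes name Trimmomatic 0.36, STAR 2.5.2b, featureCounts, Subread 1.5.2 and the build GRCh38. Strand setting and pair counting: not given in the sources used here. The authors deposited raw gene counts and a TPM table. TPM recomputed from counts and exon lengths differed from the deposited TPM by a relative 4.82e-05 at most, so both hold 1 measurement. The table's 391182 rows without a gene were left out. Identifiers were matched to symbols for 98.1% of genes, and biotypes came from GENCODE release 29, whose coordinates were the same for all 10 members. Other per-sample columns numbered 0.

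The counts entered edgeR 4.0.16 under R 4.3.3: filterByExpr, TMM, robust quasi-likelihood fit with group as the only term, and Benjamini-Hochberg adjustment over 19255 genes at 0.05. The common biological coefficient of variation was 9.57%, and library totals of 28395265 to 53275252 leave genes under 1 CPM resting on few reads. Errors given are the SD of 3 libraries; SEs of log2 fold changes come from the quasi F statistic. CPM are TMM-normalised. The p-values measure the spread between these libraries, which may be technical. All library pairs differed by more than sampling noise, and each library counted as 1 replicate. The alternatives were RLE factors, library size alone, no filter, DESeq2 1.42.0, limma 3.58.1 on log2(TPM + 1) or log2(TPM + 0.1), each library left out and the replicate number as a block. The fits were tested first on simulated counts with the same dispersion in every library. That setting does not cover a deviating library such as parental replicate 2.

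The members and lists were chosen with earlier results of these data known. Named genes were all members; from each list up to 3 called genes at 1 CPM or more, by size of change; the 5 genes nearest in profile to INHBA and 3 nearest to FST, among protein-coding genes of at least 10 CPM. Any other list gene named, SMAD2 and GADD45B among them, was chosen after its values were seen, and neighbours by position. No protein sequence was used here. Some genes the rule names are not reported here.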

Additional observations from a re-analysis of the deposited data

How the results depend on the processing

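The members' calls held under most settings. All settings refit the same libraries in which the INHBA difference was already known. They show only how the calls depend on the processing and add no support. INHBA, ACVR1B and ACVR2A were higher and INHBB and FSTL3 lower, and called, in the fit with all libraries and in each of the 14 alternatives. No member, and none of the 26 list genes refitted, changed direction in any alternative in which it was tested; the genes nearest in profile or position were not refitted. Over all alternatives, 129 of 138 refits of single members gave the call of the main test, 7 lost it (all INHA) and 2 gained it (INHBE with limma on log2(TPM + 0.1), ACVR2B without parental replicate 2). For named pathway genes 351 of 364 did and 13 lost it (BMPR1A, SMAD6 and SMAD7).

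Leaving out 1 library gave 5600 to 11870 called genes in place of 7476, with 2432 to 5714 higher (3375 with all libraries) and 3168 to 6156 lower (4101); the highest of each came without parental replicate 2. Members called higher stayed at 3 and members called lower numbered 2 to 3; pathway genes called higher numbered 18 to 28 and lower 20 to 30. The secreted antagonists that fell numbered 2 rather than 5 with limma on filtered TPM, and the convertases that rose 1 rather than 2. CHRD, CHRDL1, DAND5 and PCSK5 did not reach 1 TPM in 3 libraries, so that filter left them untested. With limma and no filter the counts were 5 and 2.

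With the replicate number as a block, 7052 genes were called, 3169 higher and 3883 lower, and INHA lost its call, with a log2 fold change of -1.73 (-1.82 without the block). The numbers did not pair the libraries: deviations from the group means correlated at -0.00842, 0.00925 and 0.0722 for replicates 1 to 3, and only the third pair of libraries correlated best with each other. INHA, INHBE and FST rest on under 100 reads per library.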
